A study of Homo sapiens with 2 samples.

Results

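The voltage-gated sodium channel alpha subunit genes described here are 9 of the 60623 gene entries counted in each library, namely SCN1A, SCN2A, SCN3A, SCN7A and SCN9A, which stand together in a cluster on chromosome 2, and SCN4A, SCN8A, SCN10A and SCN11A on other chromosomes. They were listed by name and matched through their Ensembl identifiers, and the family was chosen from earlier results of these data in which SCN1A was far lower in 1 library, so its log2 fold changes are descriptions and carry no test. RNA was sequenced from HepG2, a human hepatocellular carcinoma cell line labelled wild type, to compare steatotic cells without and with an RXR agonist. Both groups, FFA and FFA + 9-cis-RA, received 1 mM free fatty acids (FFA; oleic and palmitic acid bound to albumin) for 24 h, and the second also 9-cis-RA, an isomer of retinoic acid, at 10 μM. Each group is 1 library, both carry the same batch label, and nothing in the records says how many cultures each library came from. The values therefore compare 2 libraries of a single tumor-derived line.

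Voltage-gated sodium channels open when a membrane depolarizes and carry the inward sodium current that starts the action potential in neurons and muscle. The large alpha subunit forms the pore and the voltage sensors, and the smaller beta subunits alter its gating and its delivery to the cell surface. These channels are best known from excitable tissue and are not part of the textbook program of the hepatocyte.

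Of the 9 genes, SCN9A and SCN1A held nearly all counts in HepG2 cells, and both were lower with added 9-cis-RA. SCN1A fell from 255 to 29 counts and SCN9A from 415 to 204 counts. The other 7 genes together had 15 counts with FFA alone and 29 with added 9-cis-RA. The chromosome 2 genes taken as a sum were lower with 9-cis-RA, whereas the sum of the genes on other chromosomes, at most 21 counts, was not distinguishable between the libraries at this depth.

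SCN1A and SCN9A are transcribed from the minus strand of chromosome 2 and lie beside each other, and the RefSeq sequences (GRCh38.p14) before their annotated starts are shown because these members held most of the family's counts. SCN1A has windows at 2 starts, and both are given. Sequences are 5′ to 3′ on the gene's strand, bases inside exons were removed, and capitals mark the letters GGTGCTG, which read CAGCACC on the other strand.
SCN1A, downstream start, chr2:166128048-166128270: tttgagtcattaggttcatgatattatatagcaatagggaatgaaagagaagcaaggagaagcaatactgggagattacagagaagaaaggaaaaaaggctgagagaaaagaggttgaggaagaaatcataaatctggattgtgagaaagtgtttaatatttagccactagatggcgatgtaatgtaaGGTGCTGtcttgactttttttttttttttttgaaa
SCN1A, upstream start, chr2:166149215-166149411: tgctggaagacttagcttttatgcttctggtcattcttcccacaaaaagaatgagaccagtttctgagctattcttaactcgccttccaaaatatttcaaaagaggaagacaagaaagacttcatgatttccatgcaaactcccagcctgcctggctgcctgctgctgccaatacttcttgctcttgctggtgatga
SCN9A, chr2:166376002-166376194: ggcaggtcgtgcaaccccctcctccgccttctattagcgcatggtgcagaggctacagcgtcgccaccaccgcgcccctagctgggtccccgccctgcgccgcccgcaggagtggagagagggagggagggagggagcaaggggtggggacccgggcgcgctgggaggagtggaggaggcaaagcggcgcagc

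The windows differ in base composition. The window of 300 bases around the downstream SCN1A start was 37.0% G and C with 3 CpG dinucleotides, and that around the upstream start was 46.3% with 2 CpG. The SCN9A window was 73.3% G and C and held 28 CpG. Windows were found for 7 of the 9 members and none for SCN3A and SCN4A. The nuclear receptor half-site AGGTCA was searched on both strands and stood in 1 SCN1A window, 5 bases before the upstream start in a stretch not printed, and in an SCN7A window. It stands in 13.8% of the 35116 promoter windows of the same length. The other half-site form GGGTCA stood in another SCN7A window and stands in 14.1% of all windows. Direct repeats of AGGTCA, spaced by 1 base (AGGTCANAGGTCA), 2 bases or 5 bases, were found in no member window and in 0.0228%, 0.00285% and 0.00570% of all windows. CAGCACC, a core of the RE1 element bound by the repressor REST, stood 62 bases before the downstream SCN1A start, in an SCN11A window and in 7.75% of all windows. GGACAG, another part of that element, stood in windows of SCN10A and SCN7A and in 20.5% of all windows. The SCN9A window held none of these motifs. A match or its absence describes letters only.

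SCN1A encodes an alpha subunit best known in inhibitory neurons of the brain. The gene lies at chr2:165984641-166149214 of GRCh38 on the minus strand and has 18868 exonic bases in the count tables. Its normalized count was 253 with FFA alone and 29.3 with added 9-cis-RA, a fall of 88.4%. The log2 fold change, taken as FFA + 9-cis-RA against FFA on normalized counts plus 1, was -3.07, with an exact 95% interval of -3.72 to -2.55. Intervals of this kind come from the share of a gene's counts found in each library, without the added 1, and cover counting error only. No replicate stands behind any of these values. In bulk RNA, fewer cells expressing a gene and less RNA per cell cannot be told apart.

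SCN9A encodes the subunit known for its role in pain-sensing peripheral neurons and lies at chr2:166195185-166376001 on the minus strand, with 13946 exonic bases. Its normalized count was 411 with FFA alone and 206 with added 9-cis-RA, a fall of 49.9%. The log2 fold change was -0.99 (interval -1.25 to -0.75), just short of the threshold of -1 used for counting genes. SCN1A had gone past this threshold by a wide margin. The difference in log2 fold change, SCN1A minus SCN9A, was -2.07, and the log2 odds ratio of their counts between the libraries was -2.11 (exact interval -2.77 to -1.49). Hence SCN1A made up 38.1% (34.4 to 41.9) of the counts of this pair with FFA alone and 12.4% (8.50 to 17.4) with added 9-cis-RA.

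SCN2A and SCN3A, which encode brain alpha subunits, SCN3A mainly before birth, were barely detected. SCN2A (chr2:165194993-165392310) had 2 and 3 counts in the FFA and FFA + 9-cis-RA libraries, and SCN3A (chr2:165087522-165204067) had 1 and 1. SCN7A (chr2:166403573-166611482), whose product acts in sodium sensing and is not opened by voltage in the usual way, had 0 and 4. These genes were too low to compare, since a gene was compared only with at least 10 counts over both libraries.

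Outside the cluster, SCN8A was the only gene with enough counts. It encodes a subunit concentrated at the nodes of myelinated axons, lies at chr12:51590266-51812864 and had 9 and 13 counts, or 0.51 on the log2 scale (interval -0.78 to 1.96). This range includes 0, so no difference was detectable. SCN4A, the skeletal muscle subunit at chr17:63938554-63972918, had 1 and 6 counts. The sensory neuron genes SCN11A (chr3:38845767-39051941) and SCN10A (chr3:38696802-38816286) had 2 and 2 counts and 0 and 0 counts. A count of 0 allows up to 0.0493 CPM (a count scaled to the library total) with FFA alone and 0.0520 in the other, at 3 counts of the total.

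**Figure D1:**
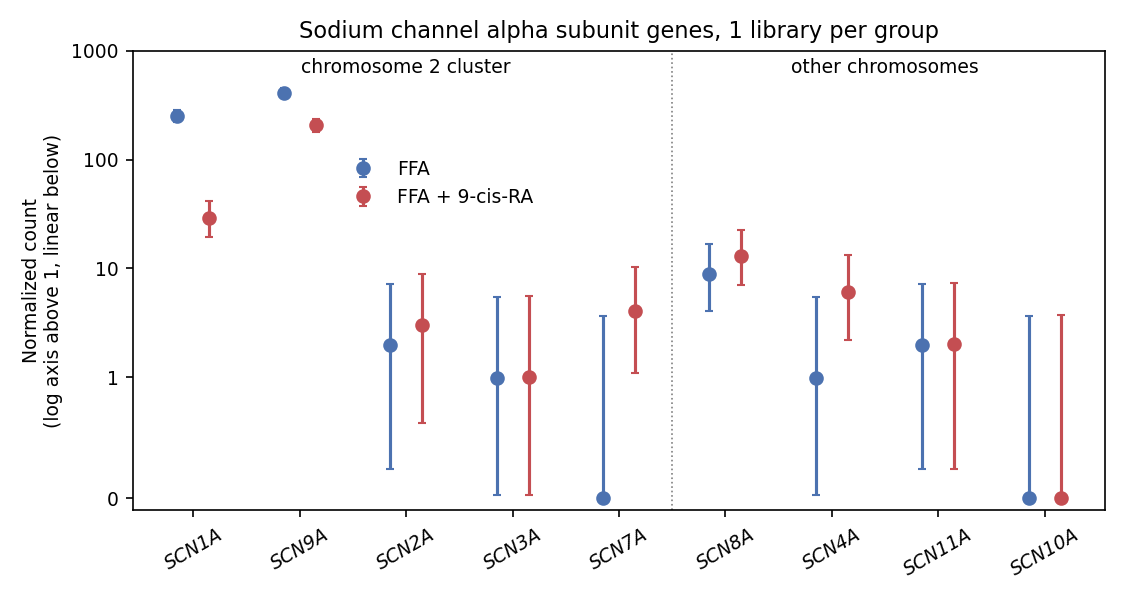
Normalized counts of the 9 alpha subunit genes in the FFA library (blue) and the FFA + 9-cis-RA library (red), on an axis that is logarithmic above 1 and linear below, with exact 95% counting intervals as bars. SCN1A drops from 253 to 29.3 and SCN9A from 411 to 206, while the intervals of the other 7 genes overlap between the libraries.

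Thus 3 of the 9 genes could be compared, 2 of 5 in the cluster and 1 of 4 outside it. Of these 3, SCN1A was below -1, as were 4.9% of all 20431 genes compared, and none was above 1, against 3.37% of all. Among the 14411 genes with at least 100 counts, 1.76% were below -1, and SCN1A was 1 of the 2 members at that depth. The counting interval lay below 0 for SCN1A and SCN9A, against 25.7% of all genes, and above 0 for no member, against 22.5%. Both compared cluster genes were lower, as were 52.3% of all genes. The family was chosen from this same contrast, so these shares are given beside the counts and nothing is read from them.

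**Figure D2:**
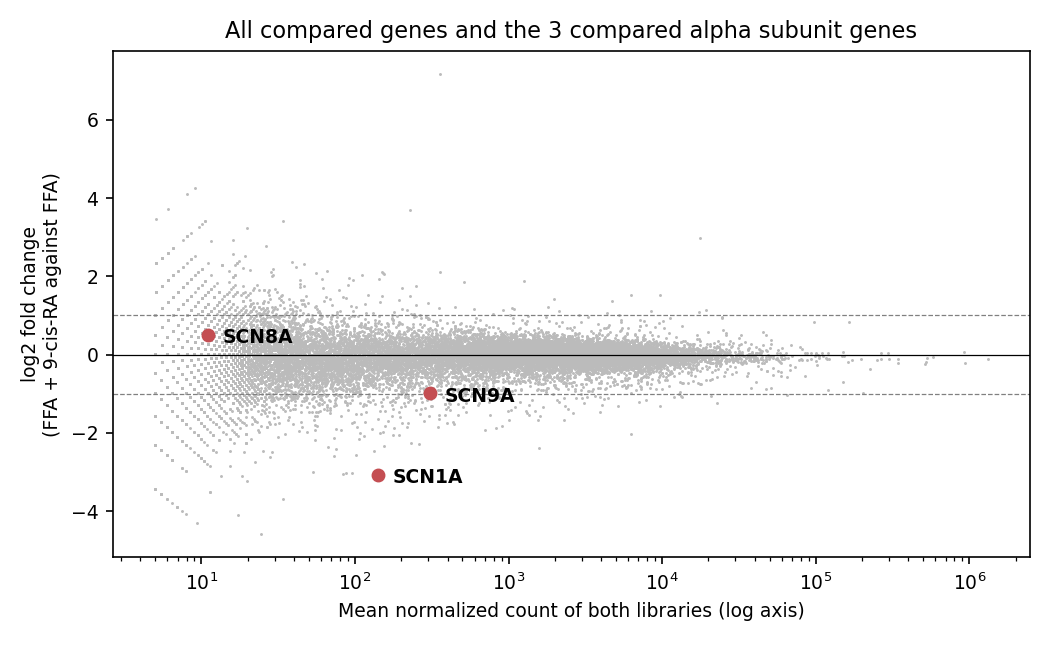
Log2 fold change (FFA + 9-cis-RA against FFA) of each compared gene against its mean normalized count on a log axis, with the compared alpha subunit genes marked. SCN1A stands at -3.07, SCN9A at -0.99 and SCN8A at 0.51, and the dashed lines mark 1 and -1.

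Summed over the 5 cluster genes, counts fell from 673 to 241, a log2 fold change of -1.45 (interval -1.67 to -1.24). Without SCN1A the cluster still fell from 418 to 212 counts, or -0.95 (-1.20 to -0.71), nearly all of it SCN9A. The 4 genes on other chromosomes summed to 12 and 21 counts, with a log2 fold change of 0.78 (-0.25 to 1.99). The median over the compared cluster genes was -2.03, beside -0.020 over all genes compared, and it rests on SCN1A and SCN9A alone. The 7 genes other than these, a grouping chosen after their values were seen, had 15 and 29 counts (0.93, interval 0.032 to 1.98). SCN1A and SCN9A together held 97.8% of the family's counts with FFA alone and 88.9% (84.5 to 92.5) with added 9-cis-RA.

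Levels of different genes were set side by side per length, in CPM per kb of merged exons. The order in the FFA library was SCN9A at 0.489 (0.443 to 0.539), SCN1A at 0.222 (0.196 to 0.251) and SCN8A at 0.00917, followed by SCN11A, SCN4A, SCN3A and SCN2A at or below 0.00327, and SCN7A and SCN10A without counts. The counting intervals of SCN9A and SCN1A did not overlap, and those from SCN8A downwards overlapped their neighbours. In the FFA + 9-cis-RA library SCN9A stood at 0.254 (0.220 to 0.291), SCN1A at 0.0267 (0.0178 to 0.0383) and SCN8A at 0.0140. Here the intervals of SCN1A and SCN8A overlapped, so their order is not resolved. The level of SCN9A was 2.20 times that of SCN1A with FFA alone and 9.52 times in the other. Among the 19916 protein-coding genes, the SCN1A level was above that of 39.5% with FFA alone and of 31.9% with added 9-cis-RA. The SCN9A level was above that of 43.0% and 40.2%, in the same order. These shares include genes without counts, since 15465 of the 19916 had any count with FFA alone and 15445 with added 9-cis-RA.

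The alpha subunit genes are similar in sequence and have antisense neighbours. Of the distinct 50-base words in the GENCODE transcripts, 1.55% of those of SCN1A and 2.67% of those of SCN9A also occurred in another member. No other entry overlaps SCN1A or SCN9A exons on the same strand. The antisense entry SCN1A-AS1 covers 8.64% of the exonic bases of SCN1A and 11.4% of those of SCN9A on the opposite strand and had 1 and 0 counts.

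Other genes at the chromosome 2 cluster, which spans 1.52 Mb, were examined to see whether the lower counts extended beyond the channel genes. TTC21B, a gene of ciliary transport inside the cluster, lies between SCN2A and SCN1A, 30.8 kb from SCN1A. It had 1675 and 1460 counts, or -0.17 on the log2 scale (-0.27 to -0.068), an interval that lies wholly above those of SCN1A and SCN9A. CSRNP3 and GALNT3, also inside the cluster, had 1 and 0 and 2 and 0 counts. The noncoding entry ENSG00000236283, on the plus strand antisense to SCN3A, fell from 205 to 53 counts, or -1.90 (-2.39 to -1.48). This entry (chr2:164840661-165208261) starts before the cluster, and its span also covers SLC38A11 and reaches into COBLL1, both on the minus strand. It also overlaps 240 exonic bases (1.01%) of SCN2A on the same strand, and reads there would have gone to neither gene.

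Within 1 Mb of the cluster or inside it, 9 of the 28 other entries could be compared, and all 9 were lower, against 52.3% of all genes. The interval lay below 0 for 5 of them, against 25.7%, and 1 was below -1, against 4.9%. SLC38A11, a member of an amino acid transporter family, fell from 290 to 143 counts, or -0.99 (-1.29 to -0.70). COBLL1 fell from 8528 to 5351 counts, or -0.64 (-0.69 to -0.60). XIRP2, which encodes an actin-binding protein of striated muscle, had 699 and 577 counts, or -0.25 (-0.41 to -0.088). The signaling adaptor GRB14 stood at -0.28 (-0.66 to 0.085), and the low-count entries ENSG00000277998, ENSG00000224331 and RNA5SP111 stood at -0.49, -0.17 and -0.78 with intervals that include 0. The median of the 9 was -0.49, beside -0.038 over the 1431 compared genes of chromosome 2. When the distance was widened to 3 Mb, a setting chosen after the data were seen, 15 of 22 compared entries (68.2%) were lower, 7 were higher and the median was -0.19. The 9 entries are not all separate loci. ENSG00000224331 lies within the span of COBLL1 on the same strand, and ENSG00000277998 within that of GRB14 on the opposite strand. RNA5SP111 lies beside SLC38A11 on the same strand. Adjacent genes are not replicates of each other, and no test was made of this run.

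**Figure D3:**
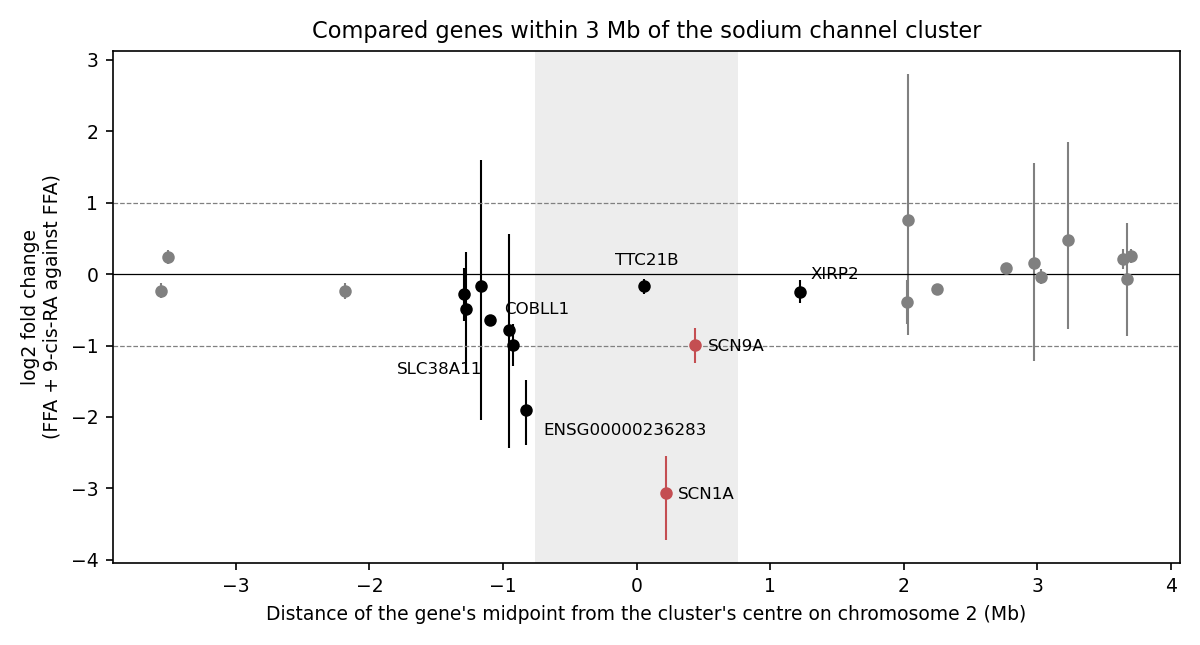
Log2 fold change of compared genes by the distance of their midpoint from the centre of the chromosome 2 cluster in Mb, with exact 95% counting intervals. Red points are SCN1A and SCN9A, black points are entries within 1 Mb of the cluster, gray points lie within 3 Mb, and the shaded band is the cluster. The black points all lie below 0, and the gray points lie on both sides.

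The beta subunit genes given here had few counts. SCN2B fell from 49 to 22 counts, or -1.09 (-1.92 to -0.37), past the threshold of -1 that 4.9% of all compared genes passed. SCN4B had 13 and 11 counts, or -0.20 (-1.52 to 1.06), an interval that includes 0, and SCN3B had 0 and 1 and could not be compared.

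Proteins known to bind, anchor or turn over sodium channels were taken as a list of 23 genes, of which 17 could be compared. Their median log2 fold change was -0.0049, 2 were above 1, against 3.37% of all genes compared, and none was below -1, against 4.9%. The interval lay above 0 for 7 and below 0 for 6, against 22.5% and 25.7%. Both genes above 1 encode intracellular fibroblast growth factor homologs that bind the channel's tail, and both had few counts. FGF11 had 6 and 18 counts (1.47, interval 0.22 to 3.23), and FGF12 had 2 and 10 (1.90, interval 0.12 to 5.58). The calmodulin genes CALM2 and CALM3 stood at 0.034 and -0.056. NEDD4L, a ubiquitin ligase that removes sodium channels from the membrane, stood at -0.0049 (-0.077 to 0.067). ANK2, an ankyrin that anchors membrane proteins, fell from 1570 to 959 counts, or -0.68 (-0.80 to -0.57), and is named here after its value was seen. ANK3, the ankyrin of the axon initial segment, had 0 and 2 counts.

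Other sodium-conducting and related channels differed in level and direction. Of the sodium leak channel complex, the pore gene NALCN had 0 and 2 counts, UNC79 had 9 and 29 (1.61, interval 0.60 to 2.98) and NALF2 stood at 0.040, so that 2 of 5 genes were compared, 1 was above 1, against 3.37% of all genes, and the median was 0.83. Of the 4 epithelial sodium channel subunits, SCNN1A rose from 608 to 971 counts (0.70, interval 0.56 to 0.85) and SCNN1D had 623 and 540 (-0.18, interval -0.35 to -0.010), with a median of 0.26. Of the 10 voltage-gated calcium channel alpha subunits, the relatives nearest in structure, 4 could be compared, with a median of 0.023 and 1 below -1, against 4.9% of all genes. CACNA1H, a channel opened by weak depolarization, had 73 and 99 counts (0.46, interval 0.016 to 0.92). CACNA1F, the retinal channel, had 10 and 2 (-1.85, interval -5.52 to -0.064), and CACNA1D and CACNA1G each had 5 and 5.

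**Figure D4:**
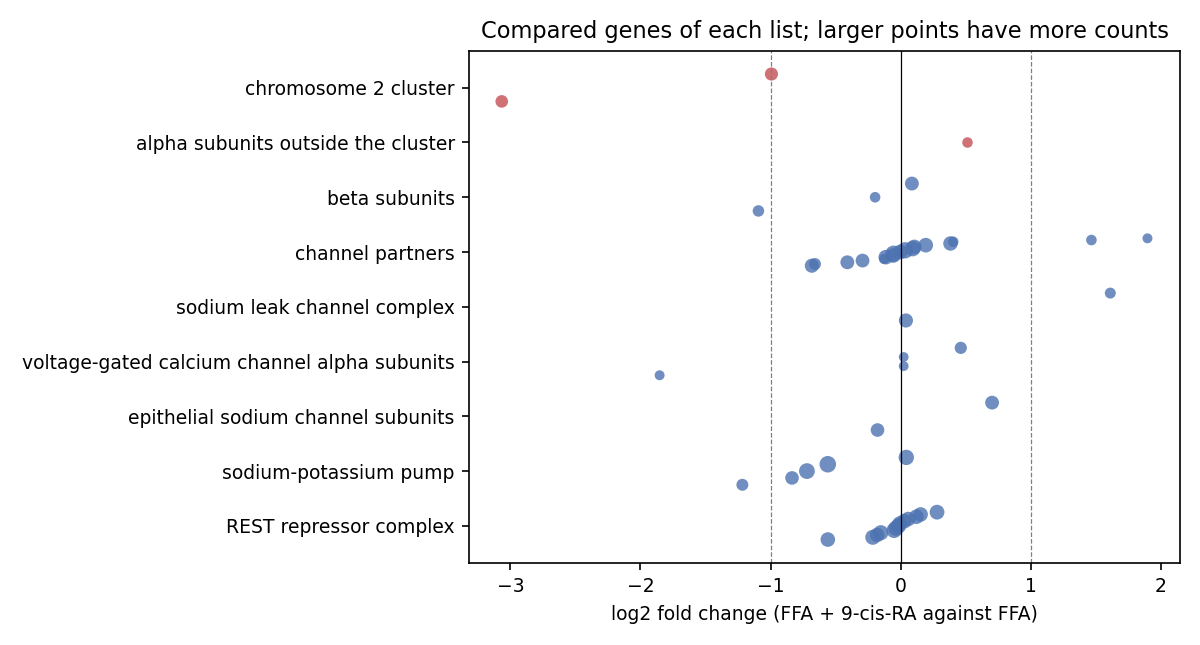
Log2 fold changes (FFA + 9-cis-RA against FFA) of the compared genes of each list, 1 point per gene, larger with more counts, with alpha subunits in red. The points of a list are set apart vertically only to be seen. The chromosome 2 cluster has SCN1A at -3.07 and SCN9A at -0.99, and the partner and calcium channel lists have medians of -0.0049 and 0.023.

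REST is the repressor that keeps neuronal genes, sodium channel genes among them, silent outside the nervous system. REST itself had 2313 and 2523 counts, or 0.15 on the log2 scale (0.071 to 0.24). All 13 genes of its complex were compared, and the median was -0.016. None was above 1, against 3.37% of all genes compared, and none was below -1, against 4.9%. The interval lay above 0 for 3 and below 0 for 5, against 22.5% and 25.7%. CTDSP1, HDAC1, KDM1A and EHMT2, those with the highest counts, stood at -0.035, -0.051, -0.016 and -0.15. The corepressors RCOR1 and RCOR2 differed in direction and are named after their values were seen. RCOR1 rose from 3096 to 3686 counts, or 0.28 (0.21 to 0.35), and RCOR2 fell from 2987 to 1987, or -0.56 (-0.64 to -0.48).

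The labelled cell type was checked against marker lists. All 8 liver markers were present. None was above 1, against 3.37% of all genes compared, and none was below -1, against 4.9%. Of the most abundant, SERPINA1 and APOA1 stood at 0.036 and 0.039, whereas AFP fell from 273242 to 134862 counts (-0.99) and ALB from 186609 to 112866 (-0.70, interval -0.71 to -0.69). FGB rose from 1603 to 2821 counts (0.84, interval 0.75 to 0.93), and the median of the list was -0.17. They summed to 15370 CPM with FFA alone and 12441 with added 9-cis-RA. Of 15 neuronal markers, 5 could be compared and 5 had no counts in either library, namely STMN2, ELAVL4, RBFOX3, NEFL and UCHL1, and the sum was 67.6 and 56.1 CPM. SYP (2170 and 1436 counts, -0.57) and SYN1 (1530 and 1442, -0.058) made up most of this. TUBB3 had 273 and 275 counts (0.038, interval -0.21 to 0.29), ELAVL3 stood at -0.64 and GRIN1 had 15 and 5 counts (-1.39). Thus 4 of the 5 were lower, against 52.3% of all genes, 1 was below -1, against 4.9%, and the median was -0.57. Of 8 skeletal muscle markers, 5 were compared, with a median of -0.079 and a sum of 7.37 and 7.13 CPM. Of these, ACTA1 was above 1 (1.02, interval -0.88 to 3.83), against 3.37% of all genes compared. TNNT1 was below -1 (-1.39, interval -3.37 to -0.024), against 4.9%. The part of these markers in the lower sodium channel counts was not tested. The FFA library held 60821539 counts in all and the other 57669670. CYP26A1, a retinoic acid hydroxylase induced by retinoids, went from 4 to 709 counts, the direction the treatment label implies.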

How the data were processed

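The files deposited by the authors hold unnormalized counts of fragments for each gene, made with featureCounts 2.0.1 (strand setting 2, both ends mapped, fragment length checked) on GRCh38. By that tool's defaults, reads with several alignments or shared by several genes on the counted strand were not counted, which lowers counts of similar or overlapping genes. The aligner and annotation release are not given in the sources used here, and the study names DESeq2. Symbols were available for 42005 of the 60623 entries, and types (58516 entries, 19916 protein-coding) came from GENCODE release 29. Exonic lengths come from the count tables.

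Counts were divided by DESeq2 median-of-ratios size factors, and log2 fold changes used a pseudocount of 1, which understates changes of low genes. A gene needed 10 counts in the libraries together to be compared, at a threshold of 1. With 1 library per group, no model was fitted and no p-value, SD or SE is given. Exact 95% intervals were Clopper-Pearson for fold changes and shares, Poisson within 1 library for counts and levels, and conditional for the odds ratio. The intervals of fold changes leave out the pseudocount. These intervals and the floors of 3 counts cover counting error only and describe these 2 libraries, not the conditions. The sodium channel genes and all lists were chosen with earlier results of these data known. The text names all 9 members, in each other list the genes past 1 or -1 and those with the highest counts, compared neighbours within 1 Mb, the 3 protein-coding genes nearest SCN1A in fold change with a normalized count of at least 100, and the 2 highest and 2 lowest KCN genes with at least 50 counts. Some genes that this rule names are not reported here. Alternatives were other scalings, pseudocounts, count minimums, loess trends (span 0.3) on length and expression, and protein-coding genes only. Factors came from DESeq2 1.42.0 and edgeR 4.0.16 in R 4.3.3, and the rest from Python 3.11.15 (scipy 1.17.1, numpy 2.4.6, statsmodels 0.14.6, pandas 2.3.3, matplotlib 3.10.9). The steps were tested on simulated data.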

Additional observations from a re-analysis of the deposited data

How the results depend on the processing

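Of 135 values recomputed under the alternatives, 121 were labelled the same, 13 moved and 1 reversed. Same meant within the counting interval, or within 1.5 times for numbers and percentages of genes. For a median, the medians of its genes' lower and upper bounds were used. Fold changes of single genes and sums could not move under another count minimum or with protein-coding genes only. List medians could not move with protein-coding genes only. These values are among the 121 and were not tested by those settings. Only values whose interval excluded 0 could be labelled reversed. Where the interval included 0, a change of sign within it was not counted. The median of the channel partners, for example, went from -0.0049 to 0.044 with total-count scaling. The log2 fold change of SCN1A lay between -3.13 and -2.91 and that of the summed cluster between -1.51 and -1.40. SCN9A lay between -1.05 and -0.94 and passed -1 only with the length trend removed. SCN8A lay between 0.38 and 0.62 and could not be compared at a minimum of 50 counts. The summed genes outside the cluster lay between 0.63 and 0.89. Without a count minimum the median of the cluster genes reversed from -2.03 to 0.014, because SCN2A, SCN3A and SCN7A, with at most 5 counts each, then enter it. The number of all genes above 1 was 689, and became 341 with a pseudocount of 5, 3771 without a minimum, 153 at a minimum of 50 counts and 270 for protein-coding genes. The number below -1 was 1002, and became 594, 2493, 361 and 446 in the same order. Without a minimum the medians of the leak complex, the epithelial channel and the pump became 1.59, 0.014 and -0.56, at a minimum of 50 counts that of the leak complex became 0.040, and with total-count scaling that of the REST complex became 0.033. No paired analysis was possible because each group has 1 library. Depth limits all statements on the 7 members with at most 13 counts in a library.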

Other observations

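Potassium channel genes, which set the resting potential that sodium channels act against, went both ways. Of 97 protein-coding genes with symbols starting with KCN, 40 had no counts and 30 could be compared, with 13 higher and 17 lower and a median of -0.058. Of the 30, 2 were above 1, against 3.37% of all genes compared, and 4 were below -1, against 4.9%. KCND1, which encodes a transient potassium channel, rose from 121 to 334 counts (1.48, interval 1.19 to 1.80), and KCNJ14, an inward rectifier, from 128 to 248 (0.98, interval 0.67 to 1.30). KCNIP4, a channel-interacting protein, fell from 36 to 15 counts (-1.18, interval -2.21 to -0.33), and KCNH6 from 318 to 152 (-1.03, interval -1.33 to -0.75).

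Among genes of the sodium-potassium pump, which exports the sodium that enters cells, the beta subunit gene ATP1B1 had 21364 and 12717 counts (-0.72, interval -0.75 to -0.69), whereas ATP1B3, another beta subunit gene, stood at 0.043. FXYD2, a regulator of the pump, had 741 and 407 counts (-0.84, interval -1.01 to -0.66). Over the 5 compared genes of this list the median was -0.72.

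DKK4, which encodes a secreted Wnt inhibitor, was among the 3 protein-coding genes whose log2 fold change was nearest to that of SCN1A over the same 2 libraries, with 128 and 20 counts (-2.59). With 2 libraries the likeness is of 1 difference only.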
